A study of Homo sapiens with 8 samples.

Results

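The 43 cell cycle and proliferation genes described here were taken by gene symbol from a count table of 58395 genes, and all 43 were listed in it. They cover the G1 cyclins and their kinases, the inhibitors of cyclin-dependent kinases (CDKs), S phase entry, the MCM replicative helicase, DNA synthesis, the cyclins and kinase that drive cells from S phase into mitosis, and the mitotic machinery. They were measured in human midbrain-type dopaminergic neurons made from induced pluripotent stem cells and sold as iCell DopaNeurons, an established commercial cell product. Both groups held the same cells, kept for 4 days on coated coverslips with 1 change of medium a day after plating, and all 8 samples carried the treatment label 10.73 mM. The GDNF group (n = 4 libraries) grew on a nanostructure that mimics glial cell line-derived neurotrophic factor. The CT group (n = 4 libraries) is read here as the scrambled nanostructure, the only comparator the series names, since the labels do not spell out CT. The series text mentions 3 biological replicates for each condition, but 4 libraries of each were used here, and nothing says that they came from separate cultures. The p-values below therefore measure the spread between these libraries, which may be technical. The product is 1 cell source, and no proliferating progenitor or stem cell sample was among the libraries, so no level could be set against that of dividing cells.

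A dividing cell passes through G1, S phase, G2 and mitosis, and each step is driven by a cyclin bound to a CDK. D-type cyclins with CDK4 or CDK6 phosphorylate the retinoblastoma protein, which frees E2F factors to switch on the genes of DNA replication; later, FOXM1 and B-MYB switch on the genes of mitosis. In resting cells the DREAM complex holds many of these genes silent, and CDK inhibitors keep the kinases off. Neurons leave the cycle when they are born and stay out of it, and p27 (CDKN1B) and p19INK4d (CDKN2D) are known from mouse work to keep them out.

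Library totals ranged from 28698283 to 31692788 counts in CT and from 29532090 to 34559240 in GDNF, so that a gene with no count in a library could still lie at up to 0.0856 to 0.104 CPM (3 counts; this covers counting error alone). Levels are depth-scaled counts (CPM) with TMM factors. Levels of different genes are compared only as CPM per kb of annotated exon, over all 8 libraries (mean ± SD). CT replicate 2 stood apart: its median correlation with the other libraries was 0.919, against 0.983 to 0.990 for the rest. Over 11820 genes of at least 5 CPM, the deviation of each library from the mean followed the GC content of the transcripts, with a Spearman correlation of 0.913 in CT replicate 2, 0.736 in GDNF replicate 4, and -0.862 to -0.779 in replicates 1 and 4 of CT and 1 and 2 of GDNF. The labels name no batch behind this. Markers of the cell type label were present: all 10 neuronal and all 8 dopaminergic markers averaged above 1 CPM. That bar does not tell cell types apart, since 9 of 12 progenitor and 5 of 6 epithelial and choroid markers also reached it. The list medians were 133 CPM per kb for neuronal, 51.7 for dopaminergic, 1.59 for progenitor and 1.22 for epithelial and choroid markers. STMN2, a tubulin-binding protein of growing axons, was at 1184 ± 132 CPM per kb. TH, which makes the dopamine precursor, was at 67.8 ± 17.2, SLC18A2 at 4.22 ± 0.713 and the progenitor gene VIM at 60.1 ± 8.14 CPM per kb.

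Promoters of cell cycle genes carry short elements that are known, from dividing cells, to time them to S phase or to mitosis; they are shown here so that the levels below can be read beside them. RefSeq windows of 300 bases (250 before to 50 after the start, GRCh38.p14) were found for 32 of the 43 members. CCND1, CCND2, CCNE2, CDK2, MCM4, MCM5, FOXM1, AURKA, BIRC5, TPX2 and UBE2C had none. Each was searched on both strands for the letters TTTGAA, the CHR element through which DREAM and the B-MYB and FOXM1 complexes act on mitotic genes; for TTTNNCGC with each N being C or G, the E2F site of replication genes; and for CCAAT, the site of the NF-Y factor. The last 120 bases before the start are given for 4 genes of mitosis with a CHR match and 3 genes of replication with an E2F match, with every match in capitals, those on the opposite strand included (CCAAT then reads ATTGG). In MKI67 a CHR match and a reverse CCAAT match overlap, and in MCM6 2 E2F matches on opposite strands do.
CDC20, chr1:43358861-43358980, plus strand: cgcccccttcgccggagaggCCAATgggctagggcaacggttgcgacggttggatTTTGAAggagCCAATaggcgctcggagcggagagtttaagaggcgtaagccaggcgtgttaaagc
PLK1, chr16:23678769-23678888, plus strand: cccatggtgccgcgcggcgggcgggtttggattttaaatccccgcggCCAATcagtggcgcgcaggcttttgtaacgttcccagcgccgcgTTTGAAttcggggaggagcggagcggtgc
CCNB2, chr15:59105026-59105145, plus strand: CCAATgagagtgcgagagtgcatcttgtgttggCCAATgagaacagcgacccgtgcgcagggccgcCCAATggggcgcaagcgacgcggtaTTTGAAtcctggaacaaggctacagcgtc
MKI67, chr10:128126424-128126543, minus strand: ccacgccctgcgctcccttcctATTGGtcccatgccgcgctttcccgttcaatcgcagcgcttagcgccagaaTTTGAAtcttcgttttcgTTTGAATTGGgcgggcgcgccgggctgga
MCM7, chr7:100101398-100101517, minus strand: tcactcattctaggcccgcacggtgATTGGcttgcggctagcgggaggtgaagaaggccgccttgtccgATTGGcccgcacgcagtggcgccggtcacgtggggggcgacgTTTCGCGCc
PCNA, chr20:5126623-5126742, minus strand: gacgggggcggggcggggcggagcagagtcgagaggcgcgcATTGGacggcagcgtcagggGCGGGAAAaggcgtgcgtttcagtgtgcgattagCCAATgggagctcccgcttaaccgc
MCM6, chr2:135876444-135876563, minus strand: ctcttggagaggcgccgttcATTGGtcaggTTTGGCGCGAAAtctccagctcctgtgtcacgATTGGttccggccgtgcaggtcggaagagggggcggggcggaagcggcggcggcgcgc

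A CHR match was present in 10 of the 32 windows (31.2%), against 18.2% of the 27305 genes with a window, an E2F match in 10 (31.2%) against 3.99%, and a CCAAT match in 24 (75%) against 39.7%. The CHR matches sat in 7 of 10 genes of the mitotic machinery (MKI67, TOP2A, BUB1B, PLK1, CENPF, NUSAP1 and CDC20), in CCNB2 and CDK1, and in RRM1. E2F matches sat in all 4 MCM genes with a window (MCM2, MCM3, MCM6 and MCM7), in PCNA, TYMS, E2F1 and CDC6, and, together with a CHR match, in CDK1 and NUSAP1. The 8 genes with a CHR match alone had a median level of 0.177 CPM per kb (0.0875 to 14.2), the 8 with an E2F match alone 2.23 CPM per kb (0.304 to 13.8), and the 14 with neither 0.888 CPM per kb (0.00366 to 102). Of the 10 genes with a CHR match, 9 lay below 1 CPM per kb, and RRM1 was the exception. The median length of all annotated transcripts of a gene, short ones included, was also used in place of the union of all exons. By it 3 of the 10 lay below 1 per kb. The medians were then 2.19 per kb for a CHR match alone, 8.23 for an E2F match alone and 1.71 for neither. A match describes the letters of the window and does not show that a factor is bound, and whether the classes differ in level was not tested.

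**Figure D1:**
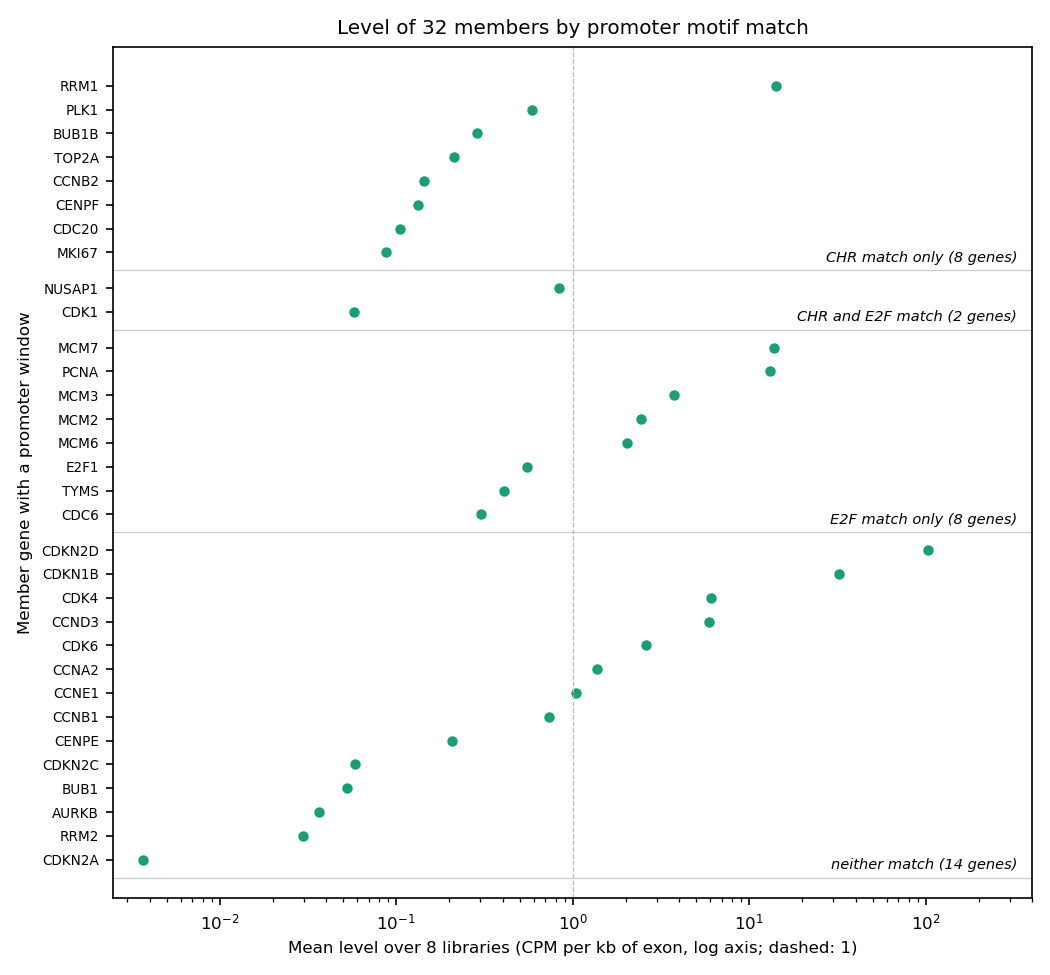
Mean level of the 32 cell cycle genes with a RefSeq promoter window, in CPM per kb of exon on a log axis (each point is 1 gene, mean of 8 libraries), grouped by the CHR and E2F letters in the window. Of the 10 genes with a CHR match 9 lie left of the dashed line at 1 CPM per kb (3 by the median transcript length) and RRM1 lies at 14.2, and the E2F-only genes reach 13.8 CPM per kb.

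The order of levels was led by 2 of the 4 CDK inhibitors and ended with RRM2 and another inhibitor, CDKN2A, and each mitotic gene lay below each helicase gene but MCM5. Only 5 members reached 10 CPM per kb, namely CDKN2D, CDKN1B, RRM1, MCM7 and PCNA; 11 lay between 1 and 10, and 27 lay below 1. Among 19902 protein-coding genes, 44.8% lay below 1 CPM per kb, 21.2% reached 10, and the median was 1.71 CPM per kb; 30 of the 43 members fell below that median. The comparison with protein-coding genes was made with the annotated exon length only. Of the 42 pairs of neighbours in the order, 8 differed by more than the larger SD of the pair: CDKN2D over CDKN1B, CDKN1B over RRM1, PCNA over CDK4, CCND3 over MCM4, MCM4 over MCM3, MCM3 over CDK6, MCM6 over CCND1, and RRM2 over CDKN2A. The other neighbours differed by no more than that SD. Neighbours were not compared within each library, so their order there was not tested. The length used matters, and neither length need be that of the mRNA made in these cells. Annotated exons include those of rare transcripts, which can make a level per kb too low. The median runs over all annotated transcripts, short ones included, which can make it too high. MKI67 stood at 0.0875 per kb by the first and at 1.53 by the second. With the median transcript length 28 members reached 1 per kb in place of 16, and CDKN2D and CDKN1B both stood at 123 per kb. By that length the lead of CDKN2D over CDKN1B was gone (122.8 against 122.9 per kb), and 3 other pairs of the 8 turned round. PCNA (14.3 per kb) lay below CDK4 (24.8), MCM3 (5.41) below CDK6 (41.2) and MCM6 (11.8) below CCND1 (12.97). The order under the 2 lengths correlated at 0.891 (Spearman, across the 43 genes). In RNA from whole cultures, a few cells with a high level and many cells with a low level cannot be told apart, nor can fewer cells from less RNA per cell.

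**Figure D2:**
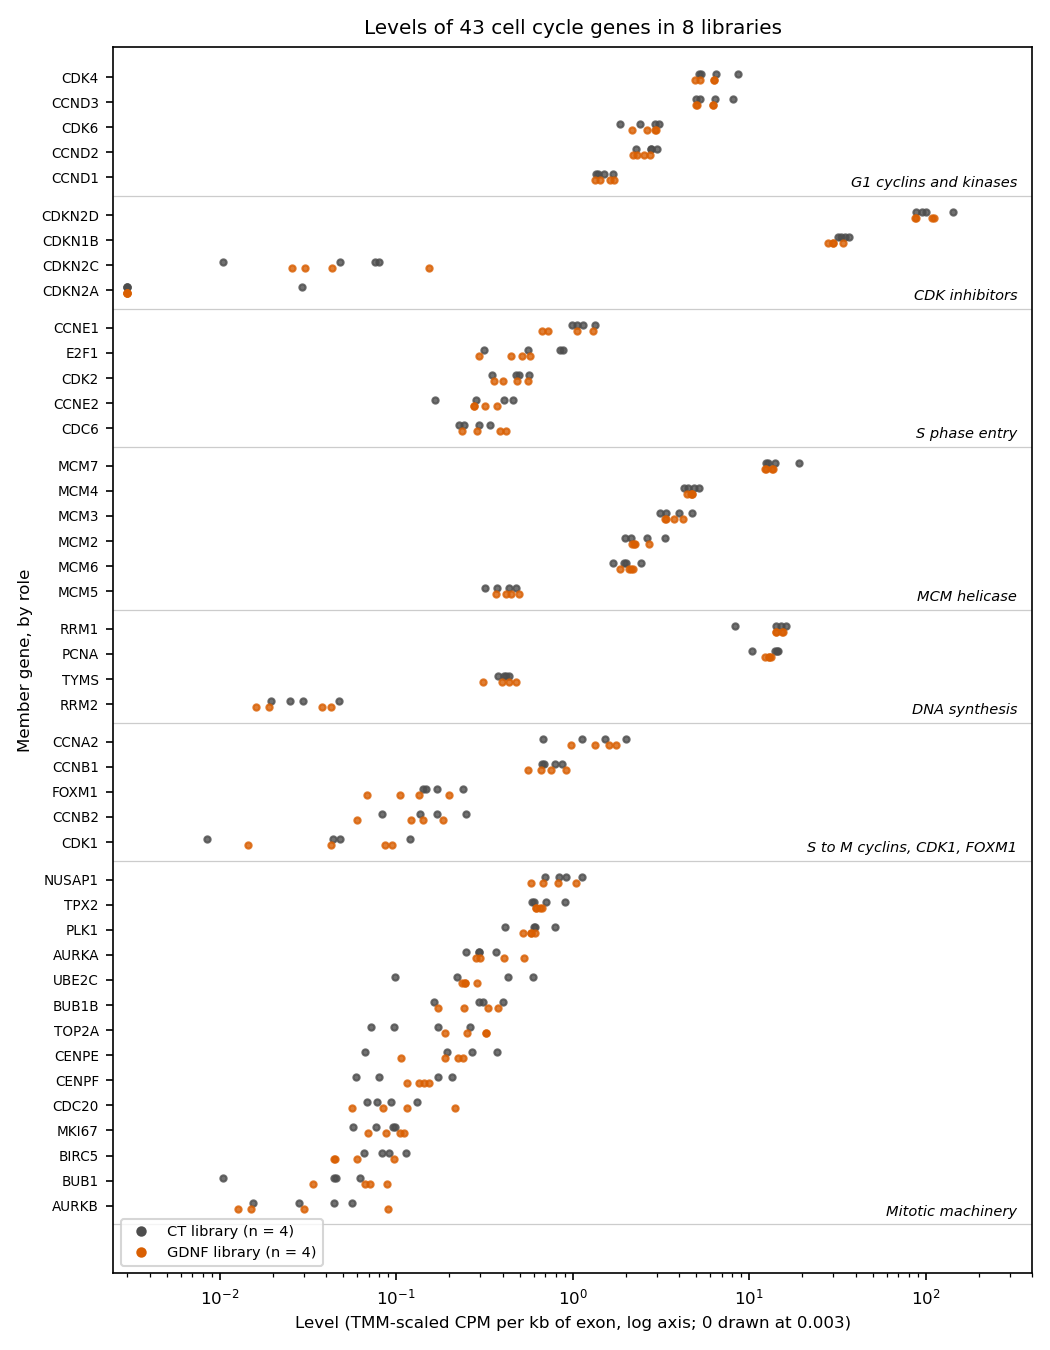
Level of each of the 43 genes in CPM per kb of exon (log axis), grouped by role, with 1 point per library (CT grey, GDNF orange, n = 4 each). CDKN2D and CDKN1B lie above 25 CPM per kb in every library, and the 14 genes of the mitotic machinery have means of 0.0365 to 0.839 CPM per kb.

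The CDK inhibitors among the 43 members were either among the abundant mRNAs of the culture or close to absent. CDKN2D, the INK4-family inhibitor p19INK4d that blocks CDK4 and CDK6 (chromosome 19, 10566462 to 10569059, minus strand, GRCh38), measured 142, 214, 151 and 132 CPM in CT replicates 1 to 4 and 132, 131, 162 and 168 CPM in GDNF replicates 1 to 4. CT replicate 2 was the highest and the groups overlapped. Its mean of 102 ± 18.7 CPM per kb lay at the 98.99th percentile of protein-coding genes. CDKN1B, the Kip-family inhibitor p27 (ENSG00000111276, chromosome 12, 12715058 to 12722371, plus strand), measured 92.7, 103, 88.9 and 98.3 CPM in CT and 83.7, 84.0, 95.4 and 78.3 CPM in GDNF. Only GDNF replicate 3 lay within the CT range, and the log2 fold change of -0.17 (95% confidence interval -0.42 to 0.09, adjusted p = 0.9999 by edgeR) did not pass the test. The level of CDKN1B was 32.2 ± 2.98 CPM per kb. The other INK4 members were rare: CDKN2C (p18INK4c) had 1 to 15 counts per library, and CDKN2A (p16INK4a and ARF) had 4 counts in CT replicate 1 and none in the other 7 libraries. Of the inhibitors outside the 43, CDKN1C (p57) stood at 31.5 ± 4.37, CDKN1A (p21, a target of p53) at 20.8 ± 4.04 and CDKN2B (p15INK4b) at 0.726 ± 0.102 CPM per kb.

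The D-type cyclins and their kinases were all present. CDK4 measured 16.5, 27.2, 20.6 and 16.9 CPM in CT and 16.6, 15.6, 19.998 and 19.94 CPM in GDNF; 43.2% of its exonic bases overlap TSPAN31 on the other strand, and the strand setting of the counting is not given in the sources used here. CCND3 (cyclin D3) measured 28.998, 46.8, 37.1 and 30.4 CPM in CT and 29.004, 29.4, 36.1 and 36.2 CPM in GDNF. Both genes, of 55.9% and 59.3% GC, were highest in CT replicate 2, and their groups overlapped. Per length, CDK4 stood at 6.05 ± 1.19, CCND3 at 5.90 ± 1.07, CDK6 at 2.62 ± 0.443, CCND2 at 2.58 ± 0.294 and CCND1 at 1.505 ± 0.151 CPM per kb. On this scale CDK4 and CCND3 differed by less than their SD, as did CDK6 and CCND2. By the median transcript length the order was CCND3 at 57.9, CDK6 at 41.2, CCND2 at 33.5, CDK4 at 24.8 and CCND1 at 12.97 per kb, so the ranking of these genes depends on the length.

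Genes that carry cells over the G1 to S boundary were low. CCNE1 and CCNE2 (the E cyclins), their kinase CDK2, the activator E2F1 and CDC6, which loads the helicase at origins, had means of 0.304 to 1.04 CPM per kb (0.553 to 2.35 by the median transcript length). E2F1 measured 2.22, 1.40, 2.11 and 0.788 CPM in CT and 1.43, 1.12, 0.739 and 1.28 CPM in GDNF. Its fold change was the lowest of the 36 members that passed the low-count filter (log2 -0.50, interval -1.25 to 0.23), the groups overlapped, and the value did not pass the test. Leaving out CT replicate 1 gave -0.32, leaving out CT replicate 4 gave -0.74, and limma-voom gave -0.24. Exons of CCNE2 (37.1%) and CDK2 (16.8%) overlap genes on the other strand.

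Subunits of the MCM2-7 helicase, which assemble as a hexamer with 1 of each, were read at unequal levels. MCM7 measured 56.3, 84.4, 61.0 and 54.7 CPM in CT and 54.6, 53.8, 59.7 and 59.3 CPM in GDNF; CT replicate 2 was high and the other 7 libraries lay within 53.8 to 61.0. Per length, MCM7 stood at 13.8 ± 2.29, MCM4 at 4.68 ± 0.289, MCM3 at 3.74 ± 0.552, MCM2 at 2.42 ± 0.442, MCM6 at 2.04 ± 0.225 and MCM5 at 0.417 ± 0.0597 CPM per kb. The ratio of MCM7 to MCM5 on that scale was 27.5 to 40.4 over the 8 libraries; by the median transcript length MCM7 stood at 40.4 and MCM5 at 5.35 per kb. MCM7 shares 8.94% of its exonic bases with AP4M1 on the other strand, and MCM2 23.6% with a gene on the other strand.

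DNA synthesis genes split in the same culture. RRM1, the large subunit of ribonucleotide reductase, measured 63.5, 34.6, 67.6 and 59.2 CPM in CT and 65.2, 59.3, 64.3 and 59.3 CPM in GDNF, with a mean of 14.2 ± 2.49 CPM per kb. RRM2, the small subunit that dividing cells make in S phase, had 3 to 8 counts per library and a mean of 0.0297 ± 0.0119 CPM per kb. Thus every library held over 1000 reads of RRM1 (1041 to 2285) and fewer than 10 of RRM2. The count of RRM2 is uncertain: 3 pseudogenes named after it summed to 0.0662 CPM, against 0.158 CPM for the gene. In addition, 20.2% of its exonic bases overlap a gene on the same strand. How far read assignment lowers its count was not tested. PCNA, the sliding clamp of the replication fork that also serves DNA repair, measured 21.1, 15.3, 21.5 and 20.5 CPM in CT and 19.0, 19.1, 19.7 and 18.0 CPM in GDNF (13.1 ± 1.34 CPM per kb). RRM1 (43.6% GC) and PCNA (45.2% GC) were lowest in CT replicate 2. TYMS, thymidylate synthase, was low at 0.407 ± 0.0484 CPM per kb, and 46.6% of its exonic bases overlap a gene on the other strand.

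Cyclins and factors of S phase to mitosis were low, with CCNA2 the highest of them per kb of exon and CCNB1 by the median transcript length (2.42 against 1.38 per kb). CCNA2 (cyclin A2) measured 4.27, 1.90, 3.15 and 5.64 CPM in CT and 4.91, 4.52, 3.76 and 2.74 CPM in GDNF, at 1.38 ± 0.438 CPM per kb. CT held both the lowest and the highest library, so the GDNF range lay inside that of CT. CCNB1 (cyclin B1) stood at 0.737 ± 0.118, FOXM1, the activator of mitotic genes, at 0.151 ± 0.0532 and CCNB2 (cyclin B2) at 0.143 ± 0.0589 CPM per kb. CDK1, the kinase that triggers mitosis, had 6, 1, 5 and 15 counts in CT and 13, 2, 5 and 10 counts in GDNF.

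Each of the 14 genes of the mitotic machinery lay below 1 CPM per kb of exon (8 of 14 by the median transcript length, by which the highest was PLK1 at 4.10 per kb), and together they held 4339 counts over the 8 libraries. Their summed level was 14.6 to 19.3 CPM in CT and 16.8 to 17.8 CPM in GDNF. MKI67, the Ki-67 antigen used to stain cycling cells (chromosome 10, 128096659 to 128126385, minus strand), measured 0.981, 1.26, 0.726 and 1.23 CPM in CT and 1.11, 0.886, 1.34 and 1.42 CPM in GDNF, from 21 to 42 counts. The groups overlapped (log2 fold change 0.17, interval -0.40 to 0.75). PLK1, a kinase of spindle assembly, measured 2.88, 3.76, 1.97 and 2.90 CPM in CT and 2.48, 2.77, 2.76 and 2.91 CPM in GDNF. AURKA, the centrosomal Aurora kinase, was at 0.341 ± 0.0921 and AURKB, the Aurora kinase of the chromosomal passenger complex, at 0.0365 ± 0.0262 CPM per kb, the latter from 1 to 7 counts. BIRC5 (survivin, a partner of AURKB) had 5 to 13 counts and CDC20, which activates the anaphase-promoting complex, 4 to 13 counts per library. The checkpoint kinase BUB1 had 2 to 16 counts and its relative BUB1B stood at 0.286 ± 0.0882 CPM per kb. TPX2 and NUSAP1, which bind spindle microtubules, were at 0.670 ± 0.101 and 0.839 ± 0.188 CPM per kb, but 62.2% of the exonic bases of NUSAP1 overlap another gene on the same strand. CENPE, a kinetochore kinesin with 35.5% GC, ranged most widely within CT, at 2.53, 0.632, 1.83 and 3.53 CPM, and measured 2.11, 2.26, 1.01 and 1.79 CPM in GDNF. UBE2C, the ubiquitin-conjugating enzyme of the anaphase-promoting complex, averaged 0.379 CPM, while 4 pseudogenes named after it summed to 0.499 CPM; for CDC20 the gene averaged 0.214 CPM and its pseudogene 0.233 CPM. How reads that match several places were counted is not given in the sources used here, so the split between these genes and their copies is uncertain.

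The comparison that the study was built for is GDNF against CT, and no cell cycle gene passed the test in it. Of the 43 members 36 passed the low-count filter. CDKN2A, CDKN2C, RRM2, CDK1, AURKB, BIRC5 and CDC20 did not. With edgeR's quasi-likelihood test and Benjamini-Hochberg adjustment over 19999 genes, 0 of the 36 members had an adjusted p under 0.05, and 0% of all genes did; the smallest adjusted p, of members as of all genes, was 0.9999. At an unadjusted p under 0.05 there was 1 member (TOP2A, 2.78% of 36), against 176 genes (0.88%). DESeq2 called 0 genes, with 151 genes (0.755%) and 1 of the 36 members at an unadjusted p under 0.05. With limma-voom and sample quality weights 0 genes were called. At that unadjusted threshold it had 837 genes (4.19%) and 4 of the 36 members (TOP2A, CCNE1, CDKN1B and BUB1). GDNF was higher for 12 members and lower for 24 (66.7%), where 52.4% of all genes were lower. The median log2 fold change of the members was -0.07, against -0.01 for all genes, with a range from -0.50 in E2F1 to 0.85 in TOP2A. By role, GDNF was higher for 2 and lower for 3 of the G1 cyclins and kinases, and lower for both inhibitors. It was higher for 1 and lower for 4 genes of S phase entry, 2 and 4 of the helicase, 1 and 2 of DNA synthesis, 1 and 3 of the S to M group, and 5 and 6 of the mitotic machinery. For none of the 36 did the groups stay clear of each other, against 0.93% of all genes (0.305% higher in GDNF and 0.625% lower). The 95% interval lay within 2-fold either way for 29 members (80.6%; all genes 83.7%) and within 1.5-fold for 20, so larger differences were outside the interval for those genes only.

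**Figure D3:**
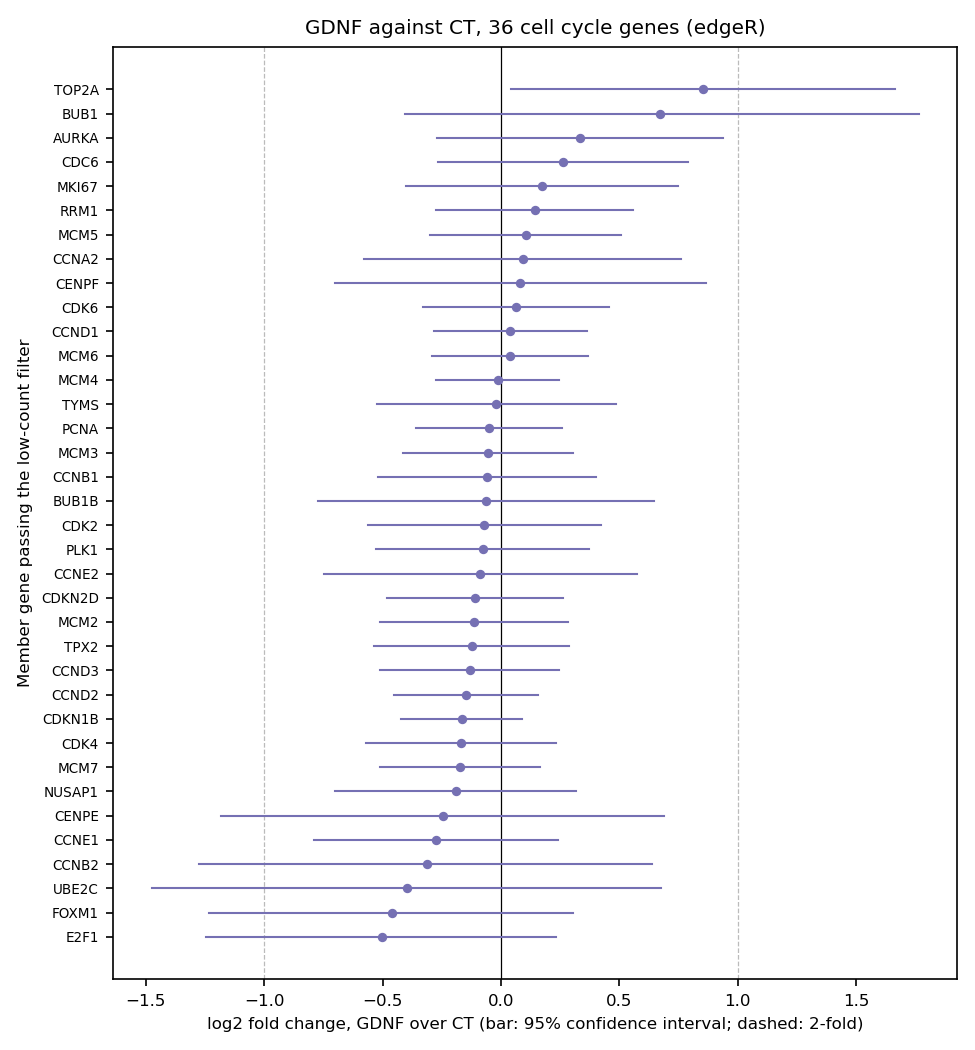
log2 fold change of GDNF over CT for the 36 members that passed the low-count filter (points, edgeR), with 95% confidence intervals as bars and dashed lines at 2-fold. The interval of TOP2A, at 0.85, is the only one that leaves out 0 before adjustment, and 29 of the 36 intervals stay between the dashed lines.

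TOP2A, topoisomerase II alpha, which untangles chromosomes before mitosis (ENSG00000131747, chromosome 17, 40388516 to 40417950, minus strand), was singled out after its values were seen. It measured 1.68, 0.466, 0.622 and 1.10 CPM in CT and 2.08, 2.09, 1.61 and 1.22 CPM in GDNF, from 14 to 73 counts. CT replicate 1 lay above GDNF replicates 3 and 4, so the groups overlapped. The means were 0.967 ± 0.546 CPM for CT and 1.75 ± 0.420 for GDNF, and the log2 fold change was 0.85 (interval 0.04 to 1.67, unadjusted p = 0.0410, adjusted p = 0.9999 by edgeR). Over 17 alternatives the log2 fold change was 0.63 to 1.26 and the adjusted p at least 0.925. The unadjusted p was under 0.05 in 11 of them; it was not without CT replicate 2 (log2 0.63), 3 (0.69) or 4 (0.92), or without GDNF replicate 1 (0.76), 2 (0.76) or 3 (0.89). The other 10 mitotic genes that passed the filter had log2 fold changes from -0.40 (UBE2C, interval -1.48 to 0.67) to 0.67 (BUB1, interval -0.41 to 1.76), with AURKA at 0.33, MKI67 at 0.17 and PLK1 at -0.08, and none passed the test. BUB1 was at 0.35 without CT replicate 1 and at 1.14 with limma-voom.

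**Figure D4:**
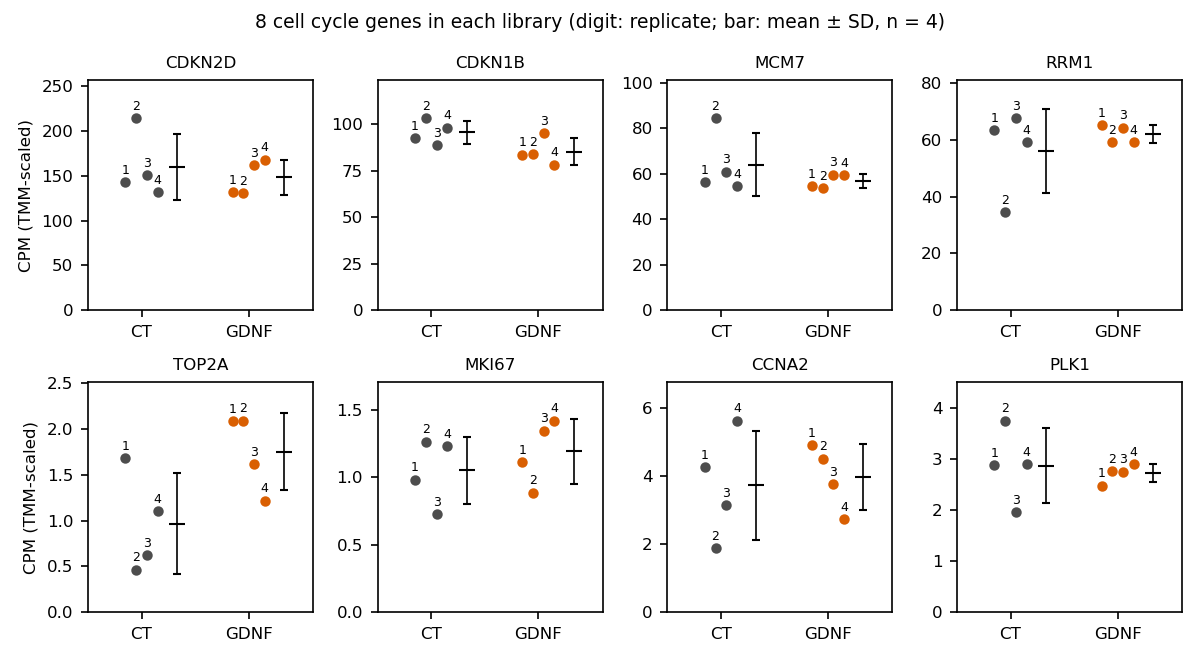
TMM-scaled CPM of 8 cell cycle genes in each library (points, with the replicate number; the bar is the mean ± SD, n = 4 per group), each panel on its own axis from 0. CT replicate 2 is the highest for CDKN2D, CDKN1B, MCM7 and PLK1 and the lowest for RRM1, TOP2A and CCNA2, and the groups overlap in every panel.

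The deviations of single libraries followed the GC content of the members. For the 31 members of at least 1 CPM, the deviation of a library from the mean of 8 correlated with GC content (Spearman, across genes, which are not independent) at 0.879 in CT replicate 2 and at 0.465 in GDNF replicate 4. The values were -0.675 and -0.618 in CT replicates 1 and 4, and -0.620 and -0.613 in GDNF replicates 1 and 2. In CT replicate 2 the 15 members of lower GC lay a median of 0.47 below the mean and the 16 of higher GC 0.18 above it, on the log2(CPM + 0.5) scale. Replicate 3 of each group showed little of it (0.296 and 0.258). The spread of CDK4, CCND3, CDKN2D and MCM7 on one side and of RRM1, PCNA, CCNA2 and CENPE on the other moved with this trend; its part in these spreads was not tested gene by gene. With offsets for GC content and length, 0 members and 0 genes were called by edgeR. Before adjustment, 364 genes (1.82%) and 1 of 36 members had a p under 0.05 by that fit. The member was TOP2A (log2 fold change 0.76, interval 0.23 to 1.30, unadjusted p = 0.0084, adjusted p = 0.9999 by edgeR).

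**Figure D5:**
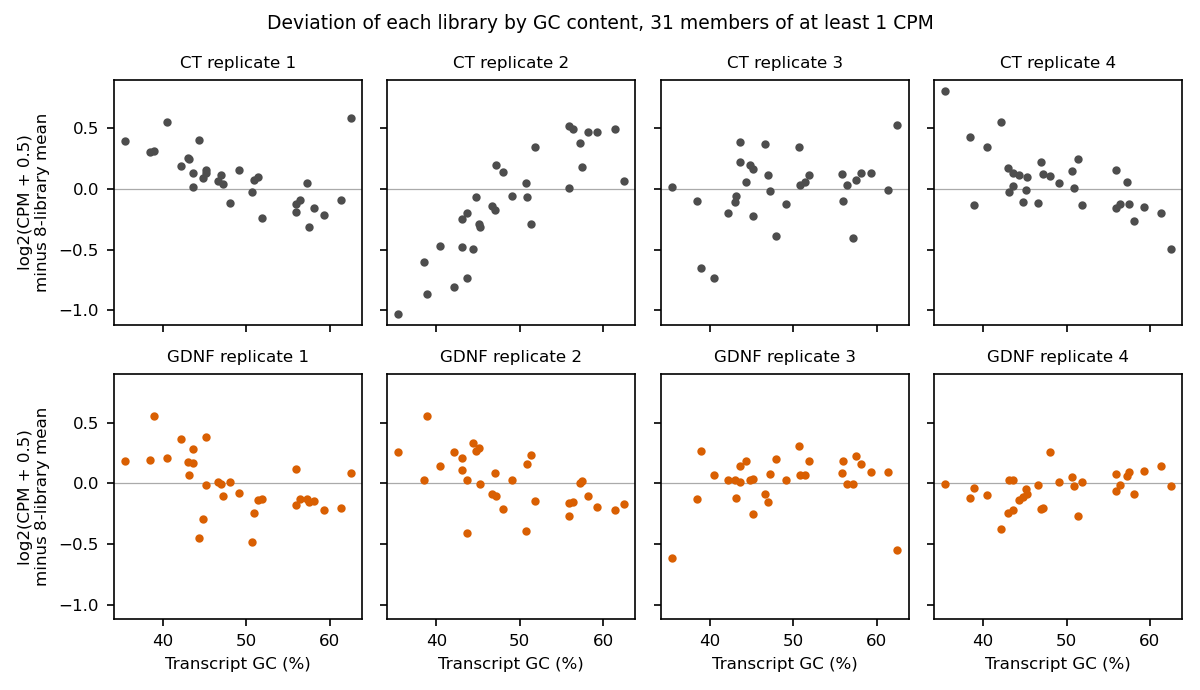
Deviation of each library from the mean of 8, as log2(CPM + 0.5), against the GC content of the transcript in percent for the 31 members of at least 1 CPM (each point is 1 gene). The cloud rises in CT replicate 2 (Spearman 0.879) and falls in CT replicates 1 and 4 and GDNF replicates 1 and 2.

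No gene passed the test among 133 other cell cycle genes in 10 lists: 120 passed the filter, 60 were higher in GDNF and 60 lower, and 0 were called, with a median log2 fold change of -0.0036. At an unadjusted p under 0.05 there were 2. ORC6, of the origin recognition complex, averaged 0.977 ± 0.410 CPM for CT and 1.64 ± 0.338 for GDNF (n = 4 each; log2 fold change 0.74, interval 0.06 to 1.42). ZWINT, of the kinetochore, was at 0.747 ± 0.257 and 0.431 ± 0.0811 CPM (log2 fold change -0.78, interval -1.50 to -0.08), and the adjusted p of both was 0.9999 by edgeR. Levels differed by list. All 12 genes of the retinoblastoma and DREAM list were above 1 CPM, with TFDP1, a partner of E2F factors, at 13.01 ± 1.003, RBBP4, a histone-binding subunit, at 10.7 ± 1.83 and RBL2 (p130, the pocket protein of resting cells) at 6.22 ± 1.08 CPM per kb. FZR1 (CDH1), which activates the anaphase-promoting complex in G1 and in neurons, stood at 38.6 ± 8.30 CPM per kb, while its mitotic counterpart CDC20 stood at 0.105 ± 0.0509. CDKs and cyclins known to work outside division had a median of 12.8 CPM per kb over 18 genes, led per length by CCNI (cyclin I, 404 ± 63.3) and CDK5R1 (p35, the activator of CDK5, 121 ± 13.1). The 16 kinetochore and checkpoint genes had a median of 0.0992 CPM per kb, 9 of them passed the filter, and INCENP, the scaffold of the passenger complex, was the highest at 3.41 ± 0.590. The mitotic kinesins and cytokinesis genes (15, median 0.180 CPM per kb) were led by CIT, citron kinase, at 3.66 ± 0.379. Between these lay origin licensing (16 genes, median 1.06), condensin (8 genes, 1.54), polymerases and the fork (22 genes, 3.30) and the anaphase-promoting complex (16 genes, 6.17 CPM per kb). TK1, thymidine kinase of S phase, named after its values were seen, had 0 to 5 counts per library. It was the lowest of the polymerase and fork list, in which 21 of 22 genes averaged at least 1 CPM. POLD2, the highest of that list by CPM, stood at 18.7 ± 3.63 CPM per kb.

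Markers of cells that could divide in such a culture were read beside these genes. Of 12 neural progenitor markers 10 passed the filter, 2 were higher in GDNF and 8 lower, and 0 were called by edgeR (1 at an unadjusted p under 0.05); their summed level was 568 to 686 CPM in CT and 569.7 to 722 CPM in GDNF, mostly the filament genes VIM and NES. PROM1, a membrane protein of progenitors with the smallest p of the list, averaged 1.45 ± 0.574 CPM for CT and 2.28 ± 0.381 for GDNF (log2 fold change 0.65, interval 0.03 to 1.27, adjusted p = 0.9999 by edgeR). SOX2, a transcription factor of progenitors, averaged 7.55 ± 0.535 CPM for CT and 6.28 ± 0.346 for GDNF, and these groups did not overlap (0.625% of all genes were lower in GDNF without overlap; adjusted p = 0.9999 by edgeR). PAX6, another such factor, had 0 to 7 and HES5 1 to 10 counts per library. Of the 12 progenitor markers, however, 9 averaged at least 1 CPM, and MSI1, next after VIM and NES, averaged 98.8 CPM. The 6 pluripotency markers summed to 3.87 to 5.62 CPM in CT and 3.60 to 4.88 CPM in GDNF, with POU5F1 at 0 to 2 and NANOG at 0 to 4 counts. Most of that sum came from SALL4 and LIN28A, which averaged 2.56 and 1.71 CPM. Of the 6 astrocyte markers, the glutamate transporter SLC1A2 averaged 282 CPM and GFAP 0.395 CPM; the 6 epithelial and choroid markers summed to 26.7 to 34.9 CPM in CT and 26.5 to 31.1 CPM in GDNF, the 8 mesenchymal markers summed to 85.0 to 114 CPM in CT and 95.7 to 114 CPM in GDNF, and none of the 6 microglial and endothelial markers passed the filter. The part of such cells in the low levels of the mitotic genes was not tested.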

How the data were processed

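Messenger RNA of 8 samples (4 GDNF, 4 CT) was sequenced from polyA libraries; per the labels' protocols, RNA came from TRIzol extracts cleaned on Monarch columns, and libraries from a TruSeq kit. The authors deposited raw counts of reads for each gene, without normalization, and all columns were used. The tools named, per the submitters' processing notes, are STAR, HTSeq, cutadapt, FastQC and DESeq2, on GRCh38; their versions, the gene annotation, how strand was set and the handling of multiply mapped reads are not given in the sources used. Overlapping genes and near-identical copies are therefore uncertain: 4 members share exonic sequence with a same-strand gene (NUSAP1, RRM2 20.2%, CCND2 13.8%, BUB1B 10.2%), 15 with one on the other strand (where not marked in place, FOXM1 15.9%, PLK1 12.5%, CCND1 10.3%, CCNA2 9.08% and 5 members less), and 12 have named pseudogenes.

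The low-count filter was filterByExpr with a minimum count of 10 and a minimum total of 15, which left 19999 genes. They were fitted with edgeR 4.0.16 (R 4.3.3; quasi-likelihood, TMM, robust, group only; two-sided, adjusted over all genes, threshold 0.05). Exon lengths and GC content came from GENCODE 29 (58275 listed genes matched), promoters from RefSeq. Alternatives were other scalings, filters, DESeq2 1.42.0, limma-voom with quality weights (limma 3.58.1), a replicate block, GC and length offsets, and each library left out. For levels they were the median transcript length and library totals. Named genes are the 43 members and genes drawn, in each other list, from the 3 of highest CPM and the 1 of smallest p. Not all genes under that rule are printed. TK1, SOX2, PAX6, HES5, POU5F1 and NANOG were picked after their values were seen. Members and lists were chosen with earlier results of these data known.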

Additional observations from a re-analysis of the deposited data

Results flagged for a closer look

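Of 85 groups of 4 libraries tested over the 43 members, 5 held 1 library far from the others (a gap of over 0.829 of the group's range), where chance gives about 1 in 20, or 4.25. CDKN2A was at 0.127 CPM in CT replicate 1 (4 counts) and at 0 in the other CT libraries. CDKN2C was at 0.507 CPM in GDNF replicate 4 and at 0.0856 to 0.143 CPM in the others. MCM4 was at 30.8 CPM in GDNF replicate 1 and at 32.8 to 33.2 CPM in the others. PCNA was at 15.3 CPM in CT replicate 2 and at 20.5 to 21.5 CPM in the others. UBE2C was at 0.370 CPM in GDNF replicate 3 and at 0.304 to 0.314 CPM in the others. The gap for UBE2C is smaller than the 0.101 CPM that 3 counts equal in that library.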

How the results depend on the processing

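Under every alternative run on the comparison, 0 genes and 0 members were called; at an unadjusted p under 0.05 the count of genes ran from 80 (at least 1 CPM in 4 libraries) to 1024 (no low-count filter). The members' median log2 fold change stayed between -0.086 and -0.028. With the median transcript length in place of the exon union, 28 members reached 1 per kb, against 16. Deviations of same-numbered libraries correlated at 0.706, -0.637, 0.320 and -0.822. The deviations also followed GC content, at 0.913 in CT replicate 2 and -0.779 in GDNF replicate 2, and at -0.862 and 0.736 in replicate 4 of CT and GDNF. These correlations therefore cannot tell whether the replicate numbers pair the samples. The replicate block gave 0 calls, 112 genes at an unadjusted p under 0.05 against 176 (edgeR), and a member median of -0.056. Log2 fold changes that changed sign, none of them called, were CDK6 -0.019, MCM2 0.052, MCM3 0.046, MCM6 -0.020, CCNA2 -0.025, CENPF -0.11, UBE2C 0.45 with limma-voom, and CDK6 -0.030, CDKN2D 0.012, MCM6 -0.042, TYMS 0.023, PLK1 0.0091, CENPF -0.0037 with GC and length offsets. With 1 library left out, the ranges of members that changed sign were CCND1 -0.020 to 0.11, CCND3 -0.22 to 0.026, CDK4 -0.26 to 0.0074, CDK6 -0.058 to 0.17, CDKN2D -0.19 to 0.068, CCNE2 -0.30 to 0.11, CDK2 -0.19 to 0.029, MCM2 -0.21 to 0.055, MCM3 -0.14 to 0.072, MCM4 -0.055 to 0.040, MCM6 -0.031 to 0.14, RRM1 -0.027 to 0.24, TYMS -0.11 to 0.087, CCNA2 -0.12 to 0.36, CCNB1 -0.20 to 0.045, BUB1B -0.25 to 0.13, PLK1 -0.22 to 0.082, CENPF -0.15 to 0.40, CENPE -0.54 to 0.11, TPX2 -0.19 to 0.019, UBE2C -0.70 to 0.036. The cause was not tested. UBE2C moved the most, from -0.40. Depth limits the 7 members under the filter, with 0 to 15 counts per library; fitted without the filter, none was called, and the log2 fold changes of the 6 with counts in both groups ran from -0.51 (BIRC5) to 0.34 (CDC20).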
